A study of Mus musculus with 6 samples.

Results

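IGHM and IGHD are the constant genes of the mu and delta heavy chains, the parts of an antibody that make it IgM or IgD. Both were followed here in spleen B cells of a heterozygous 564Igi mouse and a wild-type mouse (WT), in single-cell libraries of the rearranged receptor genes. A member cell had a barcode that the authors' tables call a cell for the B cell receptor but not for the T cell receptor of that mouse. Its primary heavy chain, the productive and high-confidence heavy contig with most unique molecular identifiers (UMIs) and at least 2 of them, was joined to IGHD or IGHM. This gave 7853 of the 8295 B cells with a heavy chain. They were 3352 of 3471 564Igi cells, with 583 IGHD and 2769 IGHM cells, and 4501 of 4824 WT cells, with 971 IGHD and 3530 IGHM cells. At the UMI minimum, 13 564Igi and 28 WT members had a primary contig of exactly 2 UMIs, of which 3 and 8 were IGHD. A further 12 564Igi and 15 WT cells had 1 UMI and were left out, of which 1 and 3 were IGHD. IGHD names the constant gene throughout, not the heavy chain D segments, whose names begin with the same letters.

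The 564Igi animal was heterozygous for the targeted alleles Igktm1(Igk564)Tik and Ightm1(Igh564)Tik on a B6.129S4(Cg) background. These place the rearranged kappa and heavy chain genes of an autoreactive antibody at their own loci, in a mouse model of lupus. The other animal was C57BL/6JRj. Each group was 1 mouse, and the labels give no age. Erythroid cells were removed from the spleen cells by Ter-119 selection, and the rest were captured in droplets and made into 5′ gene expression, B cell receptor and T cell receptor libraries, of which the 4 receptor libraries were used. Because there was 1 mouse a group, the spread between animals is unknown, no difference was tested and no p-value is given. Intervals in parentheses are 95% intervals, exact (Clopper-Pearson) for shares and Newcombe for differences. They cover counting error only.

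The mu and delta exons lie next to each other behind the joined V, D and J segments, and a B cell makes both chains from a single long transcript by alternative splicing. In GRCm38.p6, RefSeq places Ighm at 12:113418826-113422730 and Ighd at 12:113407535-113416324, both constant regions of the heavy chain locus, with 2501 bases between them. IgM is the first class a developing B cell carries on its surface, and IgD joins it as the cell matures. Follicular B cells are known for high IgD, marginal zone and B-1 cells for high IgM with little IgD, and cells that become antibody-secreting stop making IgD. A cell counted here as IGHD is therefore a cell in which the delta contig was the better supported, not a cell without mu.

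In 564Igi a heavy chain with the CDR3 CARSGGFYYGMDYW was carried by 1798 of the 3352 member cells. These cells were chosen by the CDR3 residues, and 1784 of them shared their V gene, J gene and CDR3 nucleotides, a joint of IGHV1-53 and IGHJ4. This heavy chain is the candidate for the knocked-in chain because of its frequency, since no sequence of the construct was used here. The CDR3 is the loop at the V-D-J joint that contributes most to binding. The candidate's nucleotides, found in 1796 of the 1798 cells, are shown with the last 30 bases in capitals. The split by candidate below rests on the CDR3 residues, and the split by its end on these bases. A further 695 member cells of 564Igi had a different CDR3 that ended in these 30 bases with up to 2 mismatches, and none of the WT member cells did. The second chain is the example of such a CDR3 found in both an IGHD and an IGHM cell.
candidate heavy chain: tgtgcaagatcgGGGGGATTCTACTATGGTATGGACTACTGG
564Igi chain with the candidate end: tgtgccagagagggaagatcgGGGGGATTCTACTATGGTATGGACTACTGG

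The B cell tables held 20898886 reads and 747499 UMIs in 564Igi and 24740982 reads and 927382 UMIs in WT. The median primary heavy chain of a member cell had 18 UMIs in 564Igi and 15 in WT. Barcodes called in both the B and the T cell table numbered 373 in 564Igi and 345 in WT and were left out. The mice shared 38 B cell barcodes, 20 of them with a heavy chain under the rule, and none of these had the same heavy CDR3 in both. The remaining heavy chains were few. No constant gene was assigned in 85 564Igi cells, 2.45% (1.961 to 3.02), and 297 WT cells, 6.16% (5.49 to 6.87). These contigs were short, with a median of 484 bases in 564Igi and 480 in WT, against 683 and 678 bases for IGHM contigs. Some of them may belong to IGHD or IGHM cells, more of them in WT.

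IGHD was the constant gene of 17.4% (16.1 to 18.7) of member cells in 564Igi and of 21.6% (20.4 to 22.8) in WT, a difference of -4.18 points (-5.95 to -2.40). Inside 564Igi the share depended on which heavy chain a cell carried. Cells with the candidate heavy chain were IGHD in 396 of 1798 cases, 22.0% (20.1 to 24.0), against 187 of 1554, 12.0% (10.5 to 13.8), of cells with another heavy chain. The difference was 9.99 points (7.43 to 12.5), within a single library. Set against WT, candidate cells differed by 0.451 points (-1.81 to 2.77), an interval that includes 0, whereas cells with another heavy chain differed by -9.54 points (-11.5 to -7.44). The lower share in 564Igi as a whole lay among the cells that did not carry the candidate.

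The other heavy chains of 564Igi were low both with and without the candidate's end. IGHD made up 72 of 695 cells with that end, 10.4% (8.19 to 12.9), and 115 of 859 without it, 13.4% (11.2 to 15.8). The difference of -3.03 points (-6.31 to 0.313) includes 0. Chains without the end were also lower than WT, with a difference of -8.19 points (-10.7 to -5.45). They may still share part of the CDR3 with the candidate, which was not tested. The candidate's J gene, IGHJ4, was used by 230 of the 859 cells, against 1259 of 4501 in WT. Of 17 near copies of the candidate, chains of its length with 1 to 5 mismatches, 1 was IGHD.

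The share also differed by light chain among candidate cells. The candidate kappa chain, with the CDR3 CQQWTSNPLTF, accompanied the candidate heavy chain in 1633 cells, of which 377 were IGHD, 23.1% (21.1 to 25.2). With another light chain 4 of 43 candidate cells were IGHD, 9.30% (2.59 to 22.1), and the candidate light chain minus another gave 13.8 points (0.792 to 20.8). With no light chain recovered the count was 15 of 122, 12.3% (7.05 to 19.5). The 16 candidate heavy chains paired with a lambda light chain held 0 IGHD cells, a count that leaves room for up to 18.8%. Next to another heavy chain the light chain split gave 150 of 1282 cells IGHD, 11.7% (9.99 to 13.6), with the candidate light chain, against 34 of 250, 13.6% (9.61 to 18.5), with another, a difference of -1.90 points (-7.07 to 2.52). Among cells with the candidate light chain, those with the candidate heavy chain were higher by 11.4 points (8.62 to 14.1). In WT, lambda cells were IGHD in 66 of 407 cases, 16.2% (12.8 to 20.2), and kappa cells in 901 of 4047, 22.3% (20.99 to 23.6), a difference of -6.05 points (-9.74 to -1.90). The WT lambda cells also had more heavy chain UMIs, with a median of 18 against 15. At the WT shares of the UMI classes given below, lambda cells would have had 18.97% IGHD cells and kappa cells 21.8%. Both values lie inside the observed intervals.

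**Figure D1:**
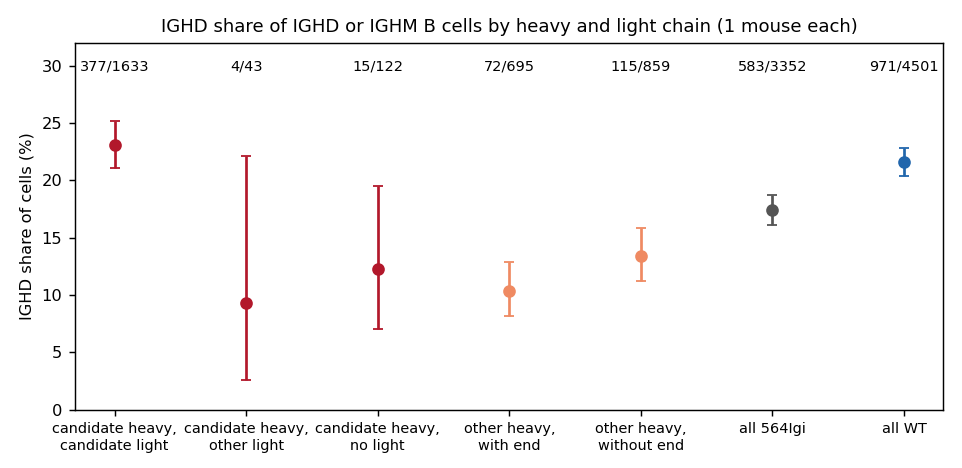
Share of IGHD cells among B cells with a primary IGHD or IGHM heavy chain, in percent, by heavy and light chain in 564Igi and in all WT cells. Points are shares of 1 mouse, bars exact 95% intervals, and the numbers above are IGHD cells over all cells. Cells with both candidate chains stood at 23.1% and WT at 21.6%, while 564Igi cells with another heavy chain stood at 10.4% with the candidate end and 13.4% without it.

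IGHD cells carried fewer heavy chain UMIs than IGHM cells in both mice. The median was 16 UMIs (interquartile range 10 to 21) in IGHD and 18 (12 to 27) in IGHM cells of 564Igi, and 12 (8 to 17) in IGHD and 16 (11 to 24) in IGHM cells of WT, ratios of 0.889 and 0.750. Among candidate cells of 564Igi the medians were 18 UMIs in IGHD and 20 in IGHM cells, and among the other heavy chains 12 and 17. Light chain UMIs followed the same order, with medians of 16 in IGHD and 20 in IGHM cells of 564Igi, and 41 and 50 in WT. Reads per UMI were slightly higher for IGHD, at 37.4 against 36.2 in 564Igi and 23.1 against 22.2 in WT, so the lower UMI counts did not come with fewer reads behind each UMI.

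**Figure D2:**
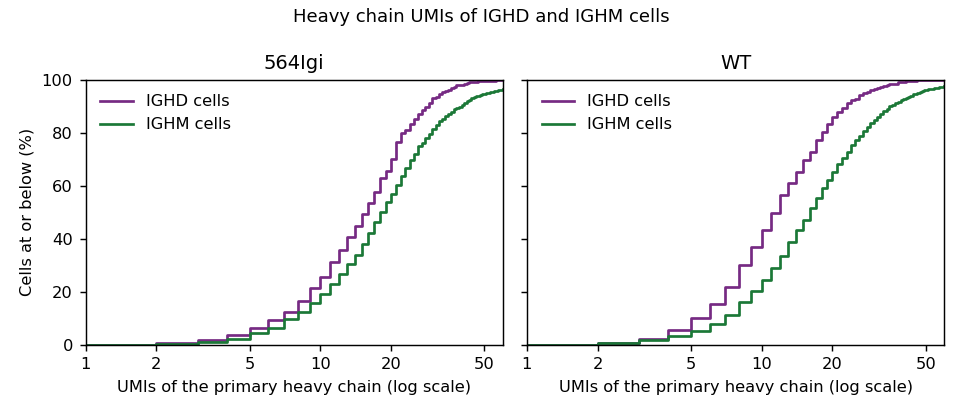
Cumulative share of cells, in percent, against the UMIs of the primary heavy chain on a log scale, for IGHD and IGHM cells of 564Igi and WT. The IGHD curve lies to the left of the IGHM curve in both mice, with medians of 16 and 18 UMIs in 564Igi and of 12 and 16 UMIs in WT.

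The clearest separation was at the top of the range. The largest IGHD chain had 57 UMIs in 564Igi and 66 in WT, whereas the largest IGHM chain had 6010 and 6130. At 100 UMIs or more there were 53 member cells in 564Igi and 37 in WT, and all were IGHM. A count of 0 IGHD cells allows shares of up to 5.66% and 8.11%. The 10 IGHM cells with most UMIs held 27.6% of all UMIs of IGHM cells in 564Igi and 29.3% in WT, against 4.74% and 3.54% for the 10 top IGHD cells. Secreting plasma cells are known for very high immunoglobulin RNA and no IgD, but without the gene expression libraries these cells were not typed.

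The share of IGHD cells was lowest among cells with many heavy chain UMIs, so the splits by candidate heavy chain and by mouse were repeated in classes of 2 to 4, 5 to 9, 10 to 19, 20 to 49, and 50 or more UMIs. With the candidate heavy chain the shares in these classes were 32%, 28.1%, 23.9%, 19.9% and 3.77%. With another heavy chain of 564Igi they were 21.3%, 17.7%, 14.6%, 7.07% and 0%. In WT they were 30.5%, 34.0%, 23.4%, 11.7% and 1.38%. Candidate cells were higher than other cells of 564Igi in all 5 classes, and the interval of the difference excluded 0 in the 3 middle ones, with 10.4 points (2.37 to 18.7), 9.27 points (4.89 to 13.6) and 12.8 points (9.10 to 16.4). The other heavy chains were below WT in all 5 classes, with intervals that excluded 0 in the same 3, at -16.3, -8.79 and -4.67 points. The difference between the chains was thus present at matched UMI numbers in those 3 classes.

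The difference between the mice as a whole varied with UMI number. It was -12.5 points (-17.3 to -7.42) at 5 to 9 UMIs and -3.64 points (-6.52 to -0.700) at 10 to 19, but 3.22 points (0.595 to 5.86), higher in 564Igi, at 20 to 49. In that class candidate cells stood 8.16 points (4.90 to 11.5) above WT. Over all cells with at least 10 UMIs the difference between the mice was -1.42 points (-3.32 to 0.490), which includes 0. A candidate share near that of WT was thus found over all cells but not among cells of 20 to 49 UMIs.

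**Figure D3:**
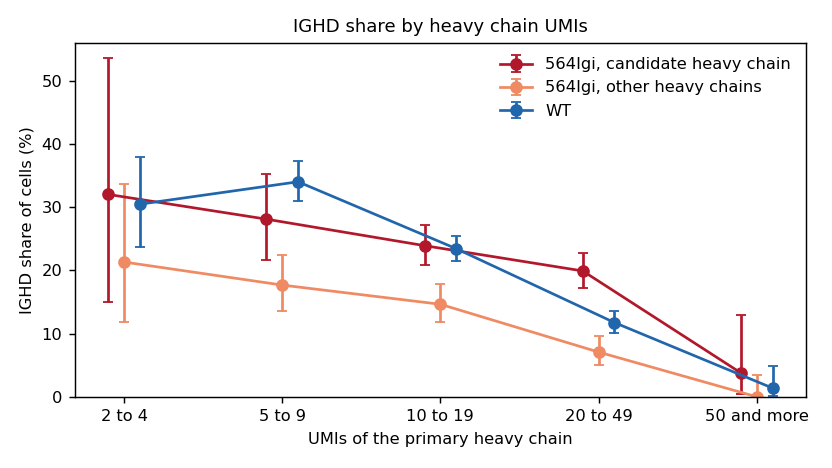
Share of IGHD cells, in percent, in 5 classes of primary heavy chain UMIs, for 564Igi cells with the candidate heavy chain, 564Igi cells with other heavy chains and WT cells. Points are shares of 1 mouse and bars exact 95% intervals. All lines end low, at 3.77%, 0% and 1.38% in the class of 50 UMIs or more, and the other heavy chains of 564Igi stay below the candidate throughout.

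Contig length hardly differed between the genes. The median was 683 bases for both in 564Igi, and 674 bases for IGHD against 678 for IGHM in WT. In WT the IGHD contigs had a longer lower tail, with a lower quartile of 576 against 644 bases, and 26.8% of IGHD against 22.7% of IGHM contigs were under 620 bases, a difference of 4.09 points (0.980 to 7.30). For candidate contigs the shares under 620 bases were 10.6% in IGHD and 11.5% in IGHM cells, and for the other heavy chains of 564Igi 25.1% and 20.04%, both with intervals of the difference that include 0.

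The V genes were compared by the IGHD share of their cells. Of the 57 IGHV genes with at least 20 member cells in WT, the interval of the IGHD share excluded the share over all genes for 4, or 7.02%, of which 2 were higher and 2 lower. Of 30 such genes among the other heavy chains of 564Igi it did so for 0, or 0%. Intervals of 95% leave some genes outside by counting error alone, so the 4 genes are given as values. IGHV1-42 was IGHD in 1 of 7 cells of 564Igi and in 17 of 43 of WT, 39.5% (24.98 to 55.6). IGHV5-16 was IGHD in 0 of 4 cells of 564Igi and in 15 of 41 of WT, 36.6% (22.1 to 53.1). Both had a median of 9 heavy chain UMIs in WT. At the WT shares of their UMI classes, IGHV1-42 would have had 28.2% IGHD cells and IGHV5-16 28.0%, both inside the observed intervals.

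At the low end, IGHV6-3 was IGHD in 0 of 22 564Igi cells, a count compatible with up to 13.6%, and in 9.90% (4.85 to 17.5) of WT cells, 10 of 101. IGHV13-2 was IGHD in 1 of 6 564Igi cells and in 0 of 21 WT cells, which allows up to 14.3%. These 2 genes had many UMIs in WT, with medians of 27 and 28. At the WT shares of its UMI classes, IGHV6-3 would have had 14.0% IGHD cells, inside the observed interval. IGHV13-2 would have had 17.7%, above its exact interval of 0 to 16.1%. IGHV1-53, the V gene of the candidate, was IGHD in 8 of 56 564Igi cells with another CDR3, 14.3% (6.38 to 26.2), and in 17 of 112 WT cells, 15.2% (9.10 to 23.2). Its UMI classes would give 16.3% in 564Igi, inside the interval, and 24.4% in WT, above the interval. The candidate's own share of 22.0% was above that of other 564Igi chains with its V gene, but the intervals overlap.

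Of the families with at least 20 cells, the interval excluded the share over all genes in 1 of 10 (10%) in 564Igi, IGHV6, and in 4 of 12 (33.3%) in WT, where IGHV6, IGHV13 and IGHV14 were lower and IGHV1 was higher. IGHV6 was IGHD in 0 of 37 cells in 564Igi, which allows up to 8.11%, and 17 of 153, 11.1% (6.61 to 17.2), in WT, where its UMI classes would give 15.3%, inside that interval. IGHV13 held IGHV13-2 alone. IGHV14 had a low share in WT. It was IGHD in 18 of 171 WT cells, 10.5% (6.36 to 16.1), although its median of 11 UMIs was low and its UMI classes would give 26.2%. In 564Igi IGHV14 was IGHD in 8 of 76 cells, 10.5% (4.66 to 19.7), against 12.0% over all other heavy chains. IGHV1, the largest family, was IGHD in 95 of 722 564Igi cells, 13.2% (10.8 to 15.8), and 620 of 2617 WT cells, 23.7% (22.1 to 25.4), where its UMI classes would give 23.3%. IGHV11-2, a gene known from B-1 cells, had fewer than 20 cells and was chosen after its values were seen. It was IGHD in 0 of 17 WT cells, which allows up to 17.6%, with a median of 42 UMIs. Its UMI classes would give 10.8%, inside the exact interval of 0 to 19.5%. IGHV14-1, also under 20 WT cells and chosen likewise, was IGHD in 0 of 16 of them, which allows up to 18.8%. Its UMI classes would give 27.8%. In 564Igi IGHV14-1 was IGHD in 1 of 19 cells and IGHV11-2 in 0 of 2. Genes under 20 cells also went the other way, with intervals above the 12.0% over all other heavy chains of 564Igi. There IGHV1-50 was IGHD in 4 of 10 cells (12.2 to 73.8) and IGHV9-2 in 2 of 2 (15.8 to 100). In WT they were IGHD in 17 of 80 and 6 of 22 cells.

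**Figure D4:**
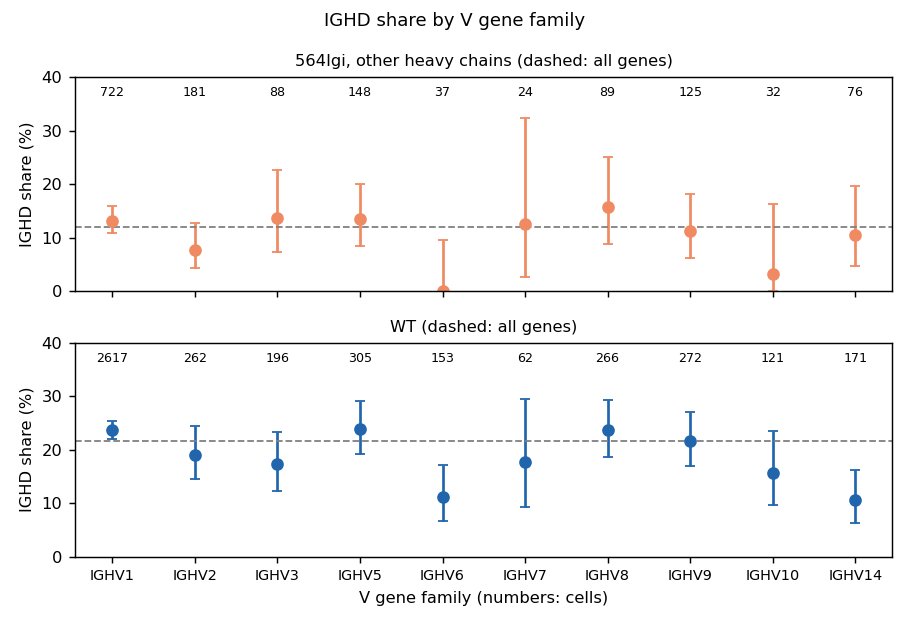
Share of IGHD cells, in percent, by IGHV family, for 564Igi cells with other heavy chains (top) and WT cells (bottom). Points are shares of 1 mouse, bars exact 95% intervals, dashed lines the share over all genes (12.0% and 21.6%), and numbers the cells per family. IGHV6 lies low in both mice and IGHV14 low in WT.

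The J genes differed little in WT, where no interval excluded the share over all genes (0 of 4 genes, or 0%). There the 4 IGHJ genes had IGHD shares of 23.8% for IGHJ1, 22.6% for IGHJ2, 19.3% for IGHJ3 and 21.0% for IGHJ4. IGHJ3 made up 21.4% of IGHD and 24.6% of IGHM cells, a difference of -3.14 points (-6.07 to -0.0776). Among the other heavy chains of 564Igi the shares were 18.98%, 14.4%, 13.0% and 10.1% in the same order. IGHJ1 was the 1 gene of 4 (25%) whose interval (12.8 to 26.6) excluded the 12.0% over all these chains, and it included the 13.4% of chains without the candidate end. IGHJ4 made up 49.7% of IGHD and 60.9% of IGHM cells there, a difference of -11.1 points (-18.95 to -3.28), and with chains that carry the candidate end left out, 18.3% and 28.1%, a difference of -9.83 points (-17.2 to -0.945). The WT difference for IGHJ4 was -0.867 points (-4.03 to 2.41).

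The median CDR3 had 14 residues in IGHD and in IGHM cells of both mice. Without the candidate the 564Igi medians were 16 residues in IGHD and 17 in IGHM cells. A net charge of 1 or more, counted as arginine and lysine minus aspartate and glutamate, was found in 41.7% of IGHD and 31.9% of IGHM cells with another heavy chain in 564Igi, a difference of 9.82 points (2.23 to 17.6). With chains that carry the candidate end left out it was 34.8% and 27.2%, with an interval of the difference that includes 0 (-1.63 to 17.6). In WT the shares were 24.5% and 24.0%, a difference of 0.516 points (-2.52 to 3.68). Positive charge in the CDR3 is a feature known from antibodies that bind nucleic acids.

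A B cell that splices both chains should hold both contigs with the same CDR3, but the tables showed almost none. Under the rule, both genes were found for a single CDR3 in 0 of the 3353 564Igi and 0 of the 4510 WT cells with an IGHD or IGHM contig. The confidence flag fixed this count, so it sets no limit on such cells. Among CDR3s with at least 2 contigs in a cell, 512 in 564Igi and 279 in WT, none had 2 contigs with the flag. With the flag set aside, 43 564Igi cells, 1.28% (0.930 to 1.72), and 42 WT cells, 0.931% (0.672 to 1.26), had both genes for a single CDR3 at 2 UMIs or more. At 1 UMI or more it was 136 cells, 4.04%, in 564Igi and 69 cells, 1.52%, in WT. In 564Igi 120 of the 136 were on the candidate CDR3.

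Pairs outside the candidate were best supported, by the lower of their 2 UMI counts, in the following cells. In 564Igi, a chain of IGHV1-69 and IGHJ4 with the candidate end had 23 IGHD and 3 IGHM UMIs. In WT, a chain of IGHV1-77 and IGHJ2 had 23 IGHD and 15 IGHM UMIs, and a chain of IGHV1-76 and IGHJ1 had 10 and 7. Their CDR3s are shown because they are not the candidate's and so pair both constant genes with a joint other than the candidate's. Capitals mark the codons of the first and last residue in WT and the candidate end in 564Igi.
564Igi cell with both genes: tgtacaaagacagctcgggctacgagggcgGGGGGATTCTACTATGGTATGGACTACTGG
WT cell with both genes, IGHV1-77: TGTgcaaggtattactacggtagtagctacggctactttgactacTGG
WT cell with both genes, IGHV1-76: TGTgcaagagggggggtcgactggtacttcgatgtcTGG

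Counted without regard to CDR3, flag or productive joint, contigs of the other gene were common, and barcodes called only as T cells, which should hold neither gene, were taken as the background. Any IGHD contig was found in 18.9% (17.4 to 20.4) of 564Igi IGHM cells and 14.1% (12.9 to 15.3) of WT IGHM cells, against 0.634% and 0.552% of T cell barcodes. IGHD contigs in IGHM cells were thus far more frequent than that background. Many contigs had no V gene: 548 IGHD contigs in 564Igi IGHM cells (median 2 UMIs) and 472 in WT (median 1 UMI). IGHM contigs with no V gene numbered 232 in 564Igi IGHD cells and 259 in WT IGHD cells. Such contigs cannot be matched to the cell's own heavy chain. Any IGHM contig was found in 40.3% (36.3 to 44.4) of 564Igi IGHD cells and 28.6% (25.8 to 31.6) of WT IGHD cells, against 29.8% (28.5 to 31.2) and 25.9% (24.4 to 27.4) of T cell barcodes. In WT this was near the background, so these tables do not show how many IGHD cells made mu chains. In barcodes with both, IGHD held a median of 90.9% of their IGHD and IGHM UMIs in 564Igi IGHD cells and 83.3% in WT IGHD cells, and 8.57% and 10.5% in IGHM cells.

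Contigs of the other gene were more frequent with the candidate heavy chain in both directions. Delta contigs were found in 388 of 1402 IGHM cells with the candidate heavy chain, 27.7% (25.3 to 30.1), and in 134 of 1367 with another, 9.80% (8.28 to 11.5). With the candidate end the share was 11.6% and without it 8.33%. Any IGHM contig was found in 44.9% of candidate IGHD cells and 30.5% (24.0 to 37.6) of the others, against 29.8% of 564Igi T cell barcodes. The other IGHD cells were thus near that background. These shares include contigs with no V gene and were not matched for UMIs. The median heavy chain of IGHM cells had 20 UMIs with the candidate and 17 with another. In IGHD cells the medians were 18 and 12.

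**Figure D5:**
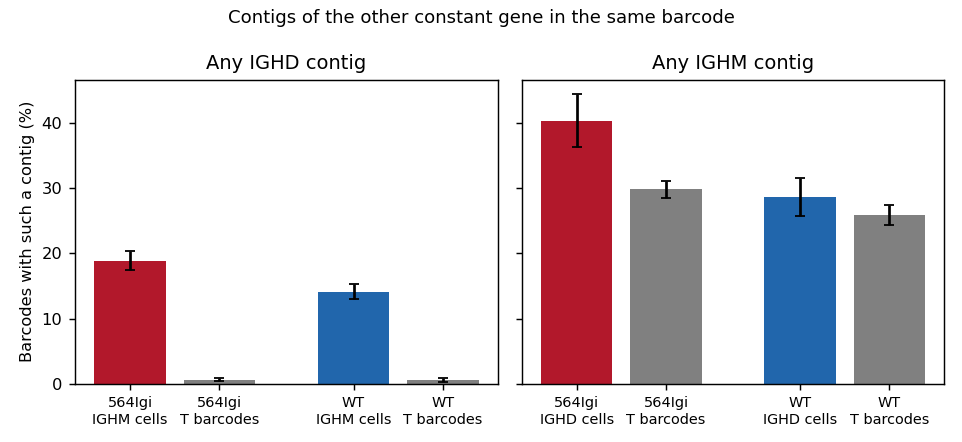
Share of barcodes, in percent, with any IGHD contig (left) or any IGHM contig (right), in B cells whose primary heavy chain is of the other gene and in barcodes called only as T cells, for 564Igi and WT. Bars are shares of 1 mouse and lines exact 95% intervals. IGHD contigs in IGHM cells, at 18.9% and 14.1%, stand far above the T cell barcodes, whereas IGHM contigs in IGHD cells, at 40.3% and 28.6%, stand against 29.8% and 25.9%.

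The background in 564Igi was mainly the candidate chain with IGHM. A primary IGHM chain under the rule was found in 561 of 4573 564Igi T cell barcodes, 12.3% (11.3 to 13.3), of which 556 carried the candidate CDR3. In WT it was found in 2 of 3263 T cell barcodes, of which 1 carried the candidate CDR3. Among barcodes called neither a B nor a T cell it was found in 130 of 12010 in 564Igi, 1.08% (0.905 to 1.28), and in 6 of 10780 in WT. The source of these contigs was not tested. A primary IGHD chain was found in 4 of 4573 564Igi and 0 of 3263 WT T cell barcodes, which for WT allows up to 0.0919%. The IGHM chains of these 564Igi barcodes had a median of 3 UMIs, against 18 in IGHM B cells. With a minimum of 10 UMIs the difference between candidate and other heavy chains of B cells was 11.0 points (8.33 to 13.7). Whether background contigs contribute to that difference was not tested. In barcodes called in both tables, IGHD made up 26 of 319 member chains in 564Igi, 8.15% (5.39 to 11.7), and 42 of 237 in WT, 17.7% (13.1 to 23.2).

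Second heavy chains and clones gave few cells. A further heavy contig was found in 2.57% of IGHD and 3.68% of IGHM cells of 564Igi, and in 7.21% and 7.65% in WT, with intervals of the differences that include 0. Of WT cells with a further chain, it was IGHD in 26 of 70 IGHD cells, 37.1% (25.9 to 49.5), and in 45 of 270 IGHM cells, 16.7% (12.4 to 21.7). In 564Igi it was IGHD in 3 of 15 and in 10 of 102. No doublet caller was run, and doublets of 2 B cells were not told apart from cells with 2 heavy chains.

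Clones, cells with equal V genes, J genes and CDR3 nucleotides of both chains, were small in number. Among clones of 2 or more member cells without the candidate, 1 of 24 in 564Igi held both IGHD and IGHM cells, 23 held IGHM cells only and 0 were IGHD throughout. In WT 1 of 15 held both, 13 were IGHM throughout and 1 was IGHD throughout. The IGHD share of cells in such clones was 1 of 55 in 564Igi, 1.82% (0.0460 to 9.72), against 12.0% of all cells with another heavy chain, and 3 of 33 in WT, 9.09% (1.92 to 24.3), an interval that includes the 21.6% of all WT cells. These intervals treat cells of a clone as independent, which they are not, and the shares were not matched for UMIs. The mixed clone of 564Igi is the second chain shown above, IGHV2-9 with IGHJ4 and IGKV4-59 with IGKJ5, with 9 UMIs in its IGHD and 5 in its IGHM cell. The mixed WT clone joined IGHV2-2 to IGHJ4 with IGKV6-15 and IGKJ2, with 5 and 11 UMIs. The WT clone that was IGHD in both of its 2 cells joined IGHV1-39 to IGHJ2, with 5 and 2 UMIs. The WT chains are shown to identify these clones.
WT clone with IGHD and IGHM cells: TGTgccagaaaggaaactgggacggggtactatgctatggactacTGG
WT clone with IGHD cells: TGTgcaagaggaccttactttgactacTGG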

How the data were processed

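The 4 receptor libraries of 6 described samples were used, from 1 mouse a group, and gene expression was not analysed here. Cell Ranger 3.0.2 and the mm10 build are named in the submitters' processing notes. The deposited tables list contigs with read and UMI counts, whole and not normalized, per the file headers, with contig length, cell call, confidence flag, gene names and CDR3. The sources used here do not say how calls and flags were set. These counts come after amplification of receptor transcripts, so the share of IGHD cells is not a share of transcripts.

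The primary chain was the contig with most UMIs, ties going to more reads. The candidate was matched by its exact CDR3 residues. An IGHV gene was named if it had at least 20 member cells in a mouse and its exact 95% interval excluded the share over all genes of that mouse, with all 4 IGHJ genes, IGHV families and IGHV1-53. IGHV11-2 and IGHV14-1, below that minimum, were added after their values were seen. 564Igi V and J genes were taken without the candidate. Expected shares apply the library's IGHD share in each UMI class to a gene's cells. Beside a count of 0 stands the share that 3 counts would make. The members and lists were chosen with earlier results of these data known. Alternatives changed the UMI minimum, the flag, the treatment of barcodes called in both tables, the number of chains per cell, the unit, the weights, the candidate match and the minimum of cells per gene. The gene rule was tested on simulated data. Coordinates are from RefSeq (GRCm38.p6). Scripts ran in Python 3.11.15 with SciPy 1.17.1 for intervals, NumPy 2.4.6, pandas 2.3.3 for tables, and matplotlib 3.10.9.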

Additional observations from a re-analysis of the deposited data

Results flagged for a closer look

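In data outside the comparisons, a primary IGHM chain stood in 12.3% of T cell barcodes of 564Igi, those not called B cells, against 0.0613% of those of WT. The source of these chains was not tested.

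CDR3s of 18 or more residues were less frequent in IGHD than in IGHM cells of 564Igi, by -9.27 points (-12.3 to -5.97), and more frequent in WT, by 2.34 points (0.238 to 4.62), so over all member cells the mice had opposite signs. The difference between the mice was not tested. Without the candidate, whose CDR3 has 14 residues, the 564Igi value was -5.48 points (-13.0 to 2.35), and with chains that carry the candidate end left out too it was 1.90 points (-3.75 to 9.42), the same sign as in WT.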

How the results depend on the processing

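Of 223 values under alternatives, 205 stayed within the counting interval of the value reported (for counts of genes, within 1.5 times), 17 moved beyond it and 1 whose interval excluded 0 was reversed. In all, 3 values changed sign, each with distinct chains counted once. Some of the 205 say nothing of stability. The 20 values with full-length contigs only equalled those reported, and so did 18 of the 20 with any confidence flag. The share of cells with both genes for a single CDR3 was fixed at 0 wherever the flag was kept. With a minimum of 10 UMIs the IGHD share was 17.9% in WT and 10.1% in the other heavy chains of 564Igi, the difference between the mice -1.42 points, the WT ratio of median UMIs 0.789 and the WT count of IGHV genes 2. With a minimum of 5 UMIs the 564Igi count was 1, and with 50 cells per gene the WT count was 1. With any confidence flag, cells with both genes of a single CDR3 made up 1.28% in 564Igi and 0.931% in WT. Equal weights over UMI classes gave an IGHD share of 20.2% in WT. Counting each distinct chain once reduces the candidate's 1798 cells to at most 13 chains by construction, so the 8.33% for the candidate and the reversed difference of -3.90 points (-12.2 to 26.3) from the other heavy chains rest on those. The 564Igi share was then 12.2%, its difference from WT -9.43 points, the 564Igi ratio of median UMIs 0.706, and its IGHD minus IGHM differences -7 bases in length (0 over cells), -11.2 points for IGHJ4 (3.198 over cells) and 0.429 points for lambda (-1.16 over cells), with turned signs for IGHJ4 and lambda, whose intervals over cells include 0. Cells under 50 UMIs alone, barcodes shared by the mice left out, chains without the candidate end, and the candidate light chain only were alternatives chosen after seeing the data, and these 4 moved none of their values beyond that interval. No paired analysis was possible because each group was 1 mouse. Rates between mice are limited by 1 animal each, by unequal depth, and by heavy chains with no constant gene.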
